A study of Mus musculus with 7 samples.

Results

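The transcripts of the EGF-family ligands and their ERBB receptors were described in 6 mouse skin tumours, 3 of each of a pair of genotypes. The 10 genes were chosen by name: the 7 ligand genes Epgn, Ereg, Areg, Btc, Tgfa, Hbegf and Egf, and the 3 receptor genes Egfr, Erbb2 and Erbb3. All 10 were found among the 55423 features of the count table, and all 10 were among the 24433 genes that passed the low-count filter and were tested. The tumours were cutaneous squamous cell carcinomas. In Ivl:BRAFV600E mice, a tamoxifen-inducible Cre recombinase (CreERT2) under the involucrin promoter switched on the BRAFV600E oncogene in the IVL+ population of the epidermis. Ivl:BRAFV600E-SOX2LSL mice carried the same driver and oncogene and, in addition, a Rosa26 allele that expresses SOX2 and eGFP once its stop cassette is removed. Both genotypes received tamoxifen on the skin, by the labels at 7 to 10 weeks of age (the study's methods give a slightly later range), and the tumours were taken at the clinical endpoint. Some Ivl:BRAFV600E mice also carried a tdRFP reporter allele. The involucrin promoter restricts recombination to committed basal and suprabasal keratinocytes, and the bulk tissue also held cells that were not recombined. The Ivl:BRAFV600E-SOX2LSL tumours were all collected sooner after induction, so time and genotype cannot be told apart. The body site of each tumour was not given. Females gave tumours 1 and 2 of Ivl:BRAFV600E and tumour 3 of Ivl:BRAFV600E-SOX2LSL, and males gave the other tumours.

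EGF-family ligands are made as membrane-anchored precursors that are cut at the cell surface, and the released ligand binds ERBB receptors on the same or neighbouring cells. EGFR binds all of the ligands described here, ERBB2 has no known ligand and acts as a partner, and ERBB3 has little kinase activity of its own and passes signals through its partners to PI3K. In the epidermis keratinocytes make most of these ligands themselves, and the receptors signal through RAS, RAF (the family to which BRAF belongs) and ERK.

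The libraries held between 23565432 and 31152826 counts on genes. Values are given as counts per 1 M (CPM) after TMM scaling, which matches the bulk of the genes between libraries, and 3 counts corresponded to between 0.0839 and 0.143 CPM. Sox2 stood at 0.716, 0.508 and 0.238 CPM in the Ivl:BRAFV600E tumours and at 182, 155 and 158 CPM in the Ivl:BRAFV600E-SOX2LSL tumours, as labelled. The tissue markers were present, with 12 keratinocyte genes summing to 40744 to 69673 CPM in Ivl:BRAFV600E and to 21001 to 48786 CPM in Ivl:BRAFV600E-SOX2LSL. Genes of the suprabasal epidermis, 8 in number, summed to 79940 to 94750 CPM and to 2863 to 26703 CPM, respectively. The 8 skeletal muscle genes summed to 1.81 to 3.94 CPM and to 178 to 886 CPM. Counts were compared with edgeR's quasi-likelihood test, p-values were adjusted by Benjamini-Hochberg over the 24433 genes, and a gene was called when its adjusted p was below 0.05. Log2 fold changes are those of Ivl:BRAFV600E-SOX2LSL relative to Ivl:BRAFV600E, with the standard error (SE).

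Among the 10 genes, the ligands Epgn and Ereg fell in Ivl:BRAFV600E-SOX2LSL tumours, by 3.13-fold and 2.96-fold in their mean levels, and no member rose by this test. The 2 members called were both lower, where 3.90% of all tested genes were called and 1.51% were called lower (2.39% higher). With limma voom the same 2 members were called, against 2.98% of all genes. The ligands Hbegf and Tgfa had mean levels above those of Ivl:BRAFV600E, whereas the other 8 members had fold changes below 0. The median log2 fold change over the 10 members was -0.37, against 0.04 over all tested genes. The genotypes did not overlap for 5 members, 4 lower and 1 higher, against 34.2% of all tested genes (16.0% lower and 18.2% higher).

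**Figure D1:**
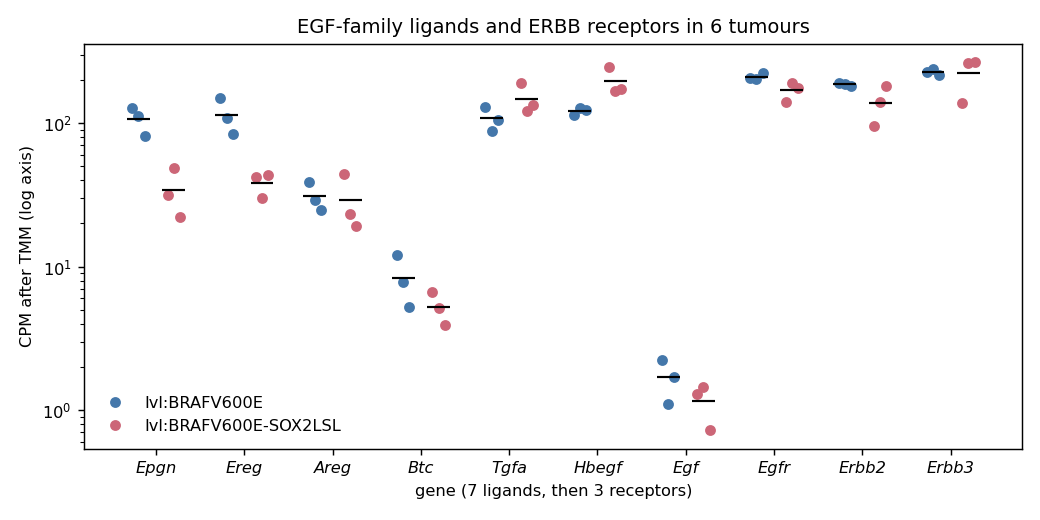
CPM after TMM scaling (log axis) of the 7 ligands and 3 receptors in each tumour, with the Ivl:BRAFV600E tumours in blue, the Ivl:BRAFV600E-SOX2LSL tumours in red and a black line at the mean of the 3 tumours. The red points of Epgn and Ereg lie below all of the blue ones, and those of Hbegf lie above.

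Epgn encodes epigen, a ligand of EGFR that is made in epithelia and binds with low affinity. It lies on chromosome 5 at chr5:91027464-91035215 on the plus strand (GRCm38). In the Ivl:BRAFV600E tumours Epgn stood at 128, 112 and 82.0 CPM, and in the Ivl:BRAFV600E-SOX2LSL tumours at 31.7, 49.0 and 22.3 CPM. Every Ivl:BRAFV600E-SOX2LSL tumour was below every Ivl:BRAFV600E tumour, and tumour 2 was the highest of its genotype. The means were 107 ± 23.4 CPM (SD, n = 3) and 34.3 ± 13.6 CPM (SD, n = 3), a 3.13-fold difference. The log2 fold change was -1.65 (SE 0.31, edgeR adjusted p = 0.0379).

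Ereg encodes epiregulin, which activates EGFR and, through ERBB4, further receptor pairs. It lies 3' of Epgn at chr5:91074622-91093646, also on the plus strand. Its level was 150, 108 and 84.3 CPM in Ivl:BRAFV600E and 42.4, 29.9 and 43.3 CPM in Ivl:BRAFV600E-SOX2LSL. The genotypes were again separate, and the spread was wider among the Ivl:BRAFV600E tumours, where tumour 1 was the highest. The means were 114 ± 33.5 and 38.5 ± 7.53 CPM (SD, n = 3 each), a 2.96-fold difference. The log2 fold change of Ereg was -1.57 (SE 0.25, edgeR adjusted p = 0.0272). Exons of Ereg overlap those of the antisense gene Gm19610, which held between 0.238 and 2.93 CPM per tumour.

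Both calls lay near the threshold with edgeR. DESeq2, which called 15.0% of genes, gave an adjusted p of 4.03e-05 for Epgn and 2.26e-06 for Ereg. The edgeR calls were lost when sex was a covariate (edgeR adjusted p = 0.101 for Epgn and 0.0595 for Ereg, with 0.933% of genes called). They were also lost when libraries were scaled to the keratinocyte markers (edgeR adjusted p = 0.0549 and 0.0998, with 732 genes called), with fold changes below 0 throughout. Epgn kept its call in 2 of 6 fits that left out a tumour, those without tumour 1 or 2 of Ivl:BRAFV600E-SOX2LSL, where its adjusted p was 0.0439 and 0.0417. Ereg kept its call without tumour 3 of Ivl:BRAFV600E (0.0470) or tumour 1 of Ivl:BRAFV600E-SOX2LSL (0.0200), and over all 6 such fits its adjusted p ranged from 0.0200 to 0.118 and that of Epgn from 0.0417 to 0.158.

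Areg encodes amphiregulin, a heparin-binding ligand of EGFR and the most studied autocrine growth factor of keratinocytes. It is the next protein-coding gene along chromosome 5 (chr5:91139599-91148432, plus strand), and its start lies 65.0 kb from that of Ereg and 112 kb from that of Epgn. Areg stood at 39.2, 29.1 and 24.9 CPM in Ivl:BRAFV600E and at 44.1, 23.5 and 19.3 CPM in Ivl:BRAFV600E-SOX2LSL. The genotypes overlapped, with tumour 1 of Ivl:BRAFV600E-SOX2LSL the highest of all 6 and the other tumours of that genotype the lowest. The means were 31.0 ± 7.35 and 28.9 ± 13.3 CPM (SD, n = 3 each), and the log2 fold change was -0.10 (SE 0.33, edgeR adjusted p = 0.876). The sign of this value was not stable: it was 0.25 with the libraries scaled to the keratinocyte markers. With single tumours left out it ranged from -0.54 to 0.13.

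The promoters of Epgn and Areg are shown because these neighbours on the same strand had different values in the same tumours. Each run, read from the RefSeq table, covers 250 bases before to 50 after the start of transcription in RefSeq (GRCm38.p6, plus strand, chr5:91027267-91027566 for Epgn and chr5:91139349-91139648 for Areg). Capitals mark the letters TATAAA, those of a TATA box, and TGACGTCA, those of the cAMP response element (CRE) bound by CREB and ATF factors.
Epgn: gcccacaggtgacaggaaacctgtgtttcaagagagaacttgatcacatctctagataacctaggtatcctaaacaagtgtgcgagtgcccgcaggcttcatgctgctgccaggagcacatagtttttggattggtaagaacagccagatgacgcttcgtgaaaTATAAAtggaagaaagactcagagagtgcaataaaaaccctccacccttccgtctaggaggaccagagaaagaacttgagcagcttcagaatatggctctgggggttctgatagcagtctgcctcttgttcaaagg
Areg: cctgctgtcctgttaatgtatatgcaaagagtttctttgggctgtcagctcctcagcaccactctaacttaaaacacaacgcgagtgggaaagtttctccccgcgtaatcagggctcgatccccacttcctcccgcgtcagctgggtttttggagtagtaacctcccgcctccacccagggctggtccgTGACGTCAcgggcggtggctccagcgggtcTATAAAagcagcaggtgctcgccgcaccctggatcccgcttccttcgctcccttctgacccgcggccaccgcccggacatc
On either strand, TATAAA occurred in 13.6% and TGACGTCA in 1.79% of 32851 promoters of the same length. The window of Epgn held TATAAA 86 bases before the start, and that of Areg held it 31 bases before the start with TGACGTCA 61 bases before it. The distance in Epgn depends on the annotation, since its RefSeq start lies 53 bases inside the GENCODE start given above, from which TATAAA was 33 bases away, while the starts of Areg were the same in both. The AP-1 letters TGANTCA (in 7.81% of all promoters) and the SOX letters CATTGTT (in 3.78%) were in neither window. These matches are of letters only, and binding was not measured. The promoter table held entries for 7 of the 10 members.

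Btc encodes betacellulin, which binds EGFR and ERBB4, and lies on the minus strand of the same stretch (chr5:91357261-91402994). Its level was low, 12.0, 7.76 and 5.27 CPM in Ivl:BRAFV600E and 6.63, 5.15 and 3.94 CPM in Ivl:BRAFV600E-SOX2LSL. The ranges overlapped, and the lowest Ivl:BRAFV600E tumour lay within the range of the other genotype. The log2 fold change was -0.67 (SE 0.35, edgeR adjusted p = 0.265).

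The 4 ligand genes share their stretch of chromosome 5 with a cluster of chemokine genes. Within 500 kb to each side (chr5:90527464-91902994), 18 genes were tested, 13 of them protein coding, and Epgn and Ereg were the 2 called. Of the 18, 14 had a fold change below 0 and 4 above, with a median of -0.48. Mthfd2l, a mitochondrial folate enzyme gene and the nearest protein-coding neighbour before Epgn, had a log2 fold change of -0.45 (SE 0.20, edgeR adjusted p = 0.219). Parm1, beyond Btc, had one of 0.75 (SE 0.29, adjusted p = 0.161). The neutrophil chemokine gene Cxcl5 had one of 2.32 (SE 0.93, adjusted p = 0.175) and the platelet factor gene Pf4 one of 1.84 (SE 0.62, adjusted p = 0.126). Of the other genes in the chemokine cluster, Cxcl3 had one of 0.32, while Cxcl2 (-0.50), Ppbp (-0.68) and Cxcl1 (-0.92) lay below 0. Values of both signs thus stood within the window, and none but those of Epgn and Ereg passed the test.

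**Figure D2:**
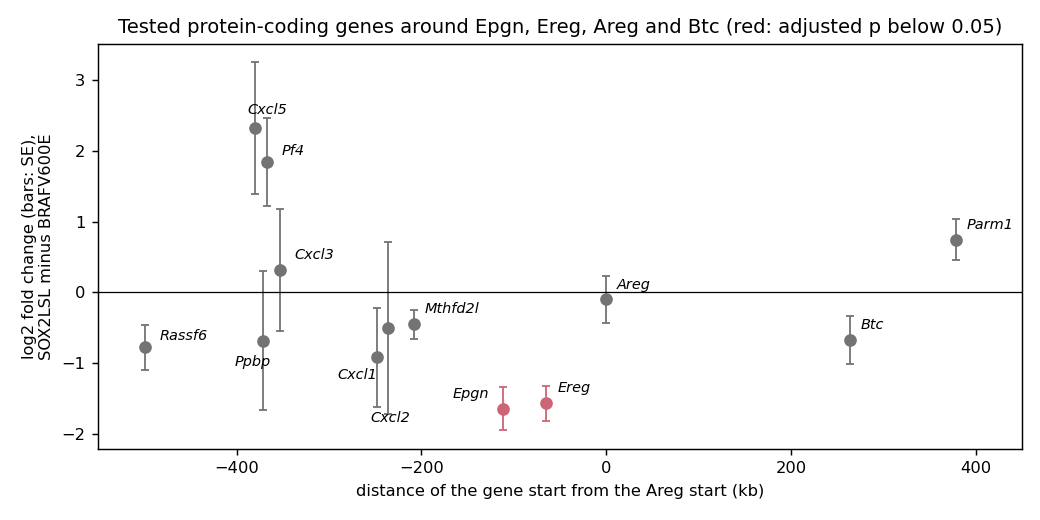
Log2 fold change (y axis, bars are the SE) of the 13 tested protein-coding genes around the ligand cluster against the distance of each gene's start from that of Areg in kb. Epgn and Ereg, in red, passed the test at -1.65 and -1.57, and Areg lies at -0.10.

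Hbegf encodes heparin-binding EGF-like growth factor, a ligand of EGFR and ERBB4 that is induced in wounded epidermis. It lies on the minus strand of chromosome 18 (chr18:36504927-36515805). It stood at 113, 127 and 124 CPM in the Ivl:BRAFV600E tumours and at 248, 167 and 172 CPM in the Ivl:BRAFV600E-SOX2LSL tumours. All 3 Ivl:BRAFV600E-SOX2LSL tumours were higher than all 3 Ivl:BRAFV600E tumours, and tumour 1 was well above the other tumours of its genotype. The means were 121 ± 6.92 and 196 ± 45.5 CPM (SD, n = 3 each), a 1.61-fold difference. The log2 fold change was 0.69 (SE 0.18), and it missed the threshold (edgeR adjusted p = 0.0744). It passed with DESeq2 (adjusted p = 0.0163, with 15.0% of genes called) and with edgeR when tumour 1 of Ivl:BRAFV600E-SOX2LSL was left out (log2 fold change 0.48, adjusted p = 0.0418, with 6.69% of genes called).

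Tgfa encodes transforming growth factor alpha, an EGFR ligand of the epidermis and hair follicle (chr6:86195223-86275719, plus strand). Its level was 130, 88.7 and 105 CPM in Ivl:BRAFV600E and 190, 121 and 134 CPM in Ivl:BRAFV600E-SOX2LSL. Tumour 1 of Ivl:BRAFV600E lay within the range of the other genotype, and tumour 1 of Ivl:BRAFV600E-SOX2LSL was the highest. The means were 108 ± 21.0 and 148 ± 36.4 CPM (SD, n = 3 each), and the log2 fold change of 0.46 (SE 0.22) did not pass (edgeR adjusted p = 0.236). It was 0.24 without tumour 1 of Ivl:BRAFV600E-SOX2LSL.

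Egf, the founding ligand of the family (chr3:129677565-129755316, minus strand), was the lowest of the members. It stood at 2.25, 1.11 and 1.71 CPM in Ivl:BRAFV600E and at 1.29, 1.46 and 0.722 CPM in Ivl:BRAFV600E-SOX2LSL, from 20 to 66 counts per tumour. The genotypes overlapped, and the log2 fold change was -0.55 (SE 0.41, edgeR adjusted p = 0.428).

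**Figure D3:**
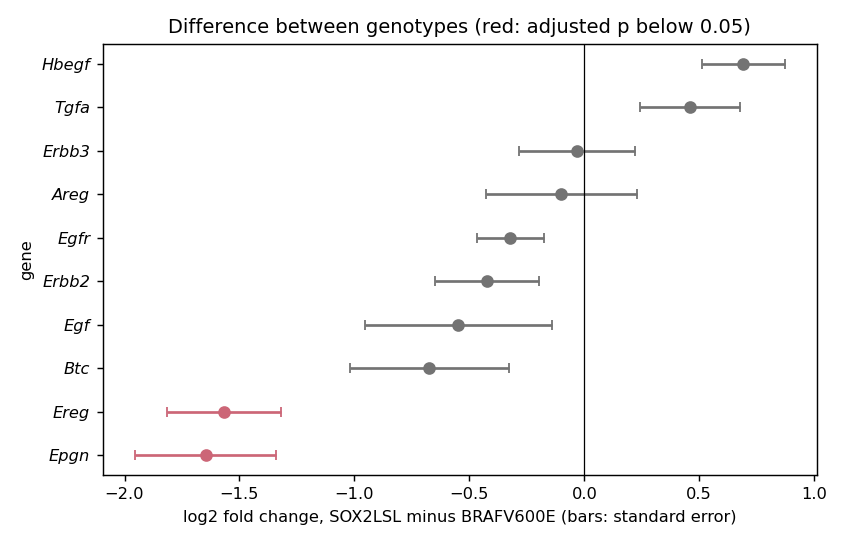
Log2 fold change of each member (x axis, Ivl:BRAFV600E-SOX2LSL relative to Ivl:BRAFV600E) with its SE as a bar, sorted by value. The 2 genes in red, Epgn and Ereg, had an adjusted p below 0.05, and Hbegf at 0.69 is the highest.

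None of the 3 receptors was called by edgeR or DESeq2 or had an unadjusted edgeR p below 0.05, as 25.7% of all tested genes had. Egfr, the receptor of all 7 ligands (chr11:16752203-16918158, plus strand), stood at 208, 202 and 224 CPM in Ivl:BRAFV600E and at 141, 189 and 176 CPM in Ivl:BRAFV600E-SOX2LSL. The genotypes did not overlap, though tumour 2 of each lay close to the other. The means were 211 ± 11.5 and 169 ± 24.8 CPM (SD, n = 3 each), and the log2 fold change was -0.32 (SE 0.15, edgeR adjusted p = 0.220). Erbb2, the partner receptor (chr11:98412470-98437716, plus strand), stood at 189, 188 and 182 CPM in Ivl:BRAFV600E and at 95.0, 141 and 180 CPM in Ivl:BRAFV600E-SOX2LSL. Tumour 1 of Ivl:BRAFV600E-SOX2LSL was the lowest and tumour 3 almost reached the Ivl:BRAFV600E range. The log2 fold change of Erbb2 was -0.42 (SE 0.22, edgeR adjusted p = 0.280). It was -0.21 without tumour 1 of Ivl:BRAFV600E-SOX2LSL and -0.65 without tumour 3 of that genotype.

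Erbb3, the receptor that couples to PI3K (chr10:128567523-128589652, minus strand), stood at 229, 238 and 215 CPM in Ivl:BRAFV600E and at 138, 264 and 265 CPM in Ivl:BRAFV600E-SOX2LSL. Tumour 1 of Ivl:BRAFV600E-SOX2LSL was again the lowest, while the other tumours of that genotype were the highest of all. The log2 fold change was -0.03 (SE 0.25, edgeR adjusted p = 0.953). Its sign turned with the libraries scaled to the keratinocyte markers (0.15), with sex as a covariate (0.04) or without tumour 1 of Ivl:BRAFV600E-SOX2LSL (0.22). Tumour 1 of Ivl:BRAFV600E-SOX2LSL thus held the lowest level of all 3 receptors and the highest of Areg, Tgfa and Hbegf. It also had the lowest sums of the keratinocyte (21001 CPM) and suprabasal (2863 CPM) markers and the highest of the fibroblast (6104 CPM) and macrophage and myeloid (419 CPM) markers, and their part in the members' values was not tested. In bulk tissue, fewer cells of a type and less RNA per cell cannot be told apart.

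Levels of different genes were set side by side as CPM per kb of merged exon, and the order of the ligands differed between the genotypes. In Ivl:BRAFV600E, Epgn was the highest of the 10 members, at 59.5 ± 12.9 CPM per kb (SD, n = 3), above Erbb3 at 37.8 ± 1.89. Next stood Erbb2 (35.8 ± 0.790), Ereg (27.7 ± 8.10), Areg (25.5 ± 6.05) and Hbegf (25.1 ± 1.43), and the ranges of neighbours in this order overlapped from Erbb3 to Hbegf. Egfr (18.6 ± 1.02) and Tgfa (16.6 ± 3.24) overlapped below them. In Ivl:BRAFV600E-SOX2LSL, Hbegf was the highest on average, at 40.5 ± 9.41 CPM per kb (SD, n = 3), and Epgn stood at 19.0 ± 7.50 and Ereg at 9.34 ± 1.83. There the ranges of neighbours overlapped all the way from Hbegf through Erbb3 (36.9 ± 12.2), Erbb2 (26.7 ± 8.21), Areg (23.8 ± 10.9), Tgfa (22.8 ± 5.61) and Epgn to Egfr (14.9 ± 2.19), and Ereg lay below without overlap. Btc (1.85 ± 0.757 and 1.16 ± 0.299) and Egf (0.150 ± 0.0507 and 0.102 ± 0.0341) were the lowest in both genotypes. The highest rank in each genotype depended on the division by exon length. In CPM, the Ivl:BRAFV600E mean of Epgn (107) lay below those of Erbb3 (227), Egfr (211), Erbb2 (186), Hbegf (121), Ereg (114) and Tgfa (108). In Ivl:BRAFV600E-SOX2LSL, the mean of Hbegf (196 CPM) lay below that of Erbb3 (222 CPM).

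The make-up of the ligand transcripts was described as the share of each ligand in the summed CPM per kb of the 7 ligands, a quantity within each tumour that does not depend on how libraries are scaled. The sum itself was 186, 154 and 129 CPM per kb in Ivl:BRAFV600E and 146, 108 and 95.9 CPM per kb in Ivl:BRAFV600E-SOX2LSL, with overlap. Epgn made up 38.1%, 40.4% and 35.1% of it in Ivl:BRAFV600E and 12.0%, 25.1% and 12.9% in Ivl:BRAFV600E-SOX2LSL. Hbegf made up 12.6%, 17.0% and 19.8% in Ivl:BRAFV600E and 35.1%, 31.9% and 37.2% in Ivl:BRAFV600E-SOX2LSL. Neither share overlapped between the genotypes. The same held for Ereg, at 17.5% ± 1.94 and 8.22% ± 2.36 (SD, n = 3 each), and for Tgfa, at 10.7% ± 1.80 and 19.6% ± 2.16, whereas Areg stood at 16.2% ± 0.968 and 19.7% ± 4.45. Pairs were formed after these values were seen and are given without a test. Epgn and Ereg together held 57.7%, 57.4% and 50.9% in Ivl:BRAFV600E and 19.0%, 31.8% and 23.8% in Ivl:BRAFV600E-SOX2LSL. Hbegf and Tgfa together held 23.4%, 25.9% and 32.2% in the former and 55.1%, 49.2% and 58.7% in the latter. Per kb, the larger pair was Epgn and Ereg in each Ivl:BRAFV600E tumour, and Hbegf and Tgfa in each Ivl:BRAFV600E-SOX2LSL tumour. Which pair was the larger in Ivl:BRAFV600E depended on the division by exon length: as shares of summed CPM, Epgn and Ereg held 48.4%, 46.5% and 39.0% and Hbegf and Tgfa 42.4%, 45.5% and 53.5% in these tumours, so the order turned in tumour 3. In Ivl:BRAFV600E-SOX2LSL, Hbegf and Tgfa remained the larger pair on that scale, at 77.6%, 72.5% and 77.4%. Shares of one total move together, so these are not separate observations.

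**Figure D4:**
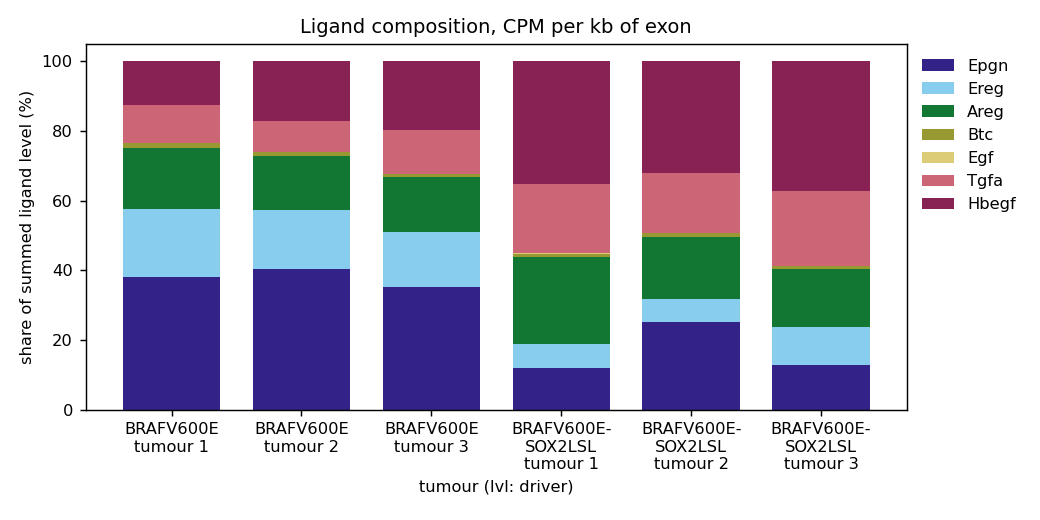
Share of each ligand (percent, stacked bars) in the summed CPM per kb of the 7 ligands, 1 bar per tumour. Epgn and Ereg at the bottom fill between 50.9% and 57.7% of the Ivl:BRAFV600E bars and between 19.0% and 31.8% of the Ivl:BRAFV600E-SOX2LSL bars, and Tgfa and Hbegf at the top fill between 49.2% and 58.7% of the latter. Egf is too small to be seen.

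The gene whose pattern over the 6 tumours was nearest to that of Ereg, the member of smallest p, was sought among 14429 genes with a mean of at least 1 CPM. The closest 5 by Pearson correlation of log2 CPM were Sptbn4 (0.997), Ano10 (0.997), Crnn (0.996), Pon2 (0.995) and Utp18 (0.995). These are descriptions over 6 tumours that all share the split by genotype. Crnn encodes cornulin, a late differentiation protein of squamous epithelia. It stood at 122, 38.9 and 23.9 CPM in Ivl:BRAFV600E and at 3.08, 1.36 and 4.98 CPM in Ivl:BRAFV600E-SOX2LSL, in the same order of tumours as Ereg. The log2 fold changes of Crnn (-4.30, edgeR adjusted p = 0.0324), Sptbn4 (-2.08, 0.0341) and Ano10 (-0.67, 0.0453) passed the test, and those of Pon2 (adjusted p = 0.0727) and Utp18 (0.182) did not. Epgn, by contrast, had a correlation of 0.84 with Ereg and ranked 1058th.

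Several lists of tissue markers differed in the same contrast as Epgn and Ereg. Of all tested genes, edgeR called 3.90% (1.51% lower and 2.39% higher), and 25.7% had an unadjusted p below 0.05. The genotypes did not overlap for 34.2% (16.0% lower and 18.2% higher). EdgeR called no fibroblast, T lymphocyte, endothelial, adipocyte, or Schwann and melanocyte gene, 6 genes in each list. In each, 1 or 2 genes had an unadjusted edgeR p below 0.05. Most fold changes in each list were above 0, with medians of 1.09, 0.81, 0.17, 3.89 and 0.69 in that order. Of the 8 suprabasal markers, 2 were called lower (Sbsn and Dsg1a), 7 did not overlap between the genotypes and were lower, and the median log2 fold change was -2.10. Of the 12 keratinocyte markers edgeR called none, and 6 had fold changes above 0 and 6 below. The 8 with an unadjusted p below 0.05 were likewise split, with Itga6, Itgb4, Dsg3 and Cdh1 above 0 and Perp, Pkp1, Jup and Dsp below. Of the 8 skeletal muscle markers 7 were called higher. The 6 macrophage and myeloid markers summed to 55.6 to 116 CPM and to 132 to 419 CPM, and 1 (Csf1r) was called higher. All 6 had fold changes above 0, with a median of 1.86, and 4 did not overlap between the genotypes. Keratins that mark particular body sites also differed: Krt9, the keratin of palm and sole skin, stood at 13.6, 390 and 378 CPM in Ivl:BRAFV600E and at no more than 3 counts in each Ivl:BRAFV600E-SOX2LSL tumour. Of the 4 site keratins, 2 were called lower (Krt9 and Krt76). The other two were not called: Krt13, a keratin of mucosal epithelia, stood at 2.86, 28.6 and 3.04 CPM and at 158, 236 and 96.4 CPM, without overlap (log2 fold change 3.83, SE 0.96, edgeR adjusted p = 0.0707), and Krt4 had a log2 fold change of 0.05 (SE 0.73). The part of tissue composition, body site and time since induction in the ligand values was not tested.

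The other components of the pathway were taken as lists, whose counts stand beside 3.90% of all tested genes called by edgeR, 15.0% called by DESeq2 and 25.7% with an unadjusted edgeR p below 0.05. ERBB4, a further receptor, and the neuregulins, ligands of ERBB3 and ERBB4, gave no call by edgeR among the 4 genes tested, of which 2 had an unadjusted p below 0.05 and 2 (Erbb4 and Nrg1) were called by DESeq2. Erbb4 held 4, 0 and 0 counts in Ivl:BRAFV600E and 8, 32 and 17 in Ivl:BRAFV600E-SOX2LSL (edgeR adjusted p = 0.111). Nrg1 stood at 39.2, 56.2 and 34.7 CPM and at 268, 59.6 and 57.6 CPM, so that tumour 1 of Ivl:BRAFV600E-SOX2LSL was far above all others. Its log2 fold change was 1.57 (SE 0.61, adjusted p = 0.166), and 0.43 without that tumour. Nrg2 (log2 fold change -0.68, adjusted p = 0.431) and Nrg4 (-0.82, 0.343) were low in every tumour. Without tumour 1 of Ivl:BRAFV600E-SOX2LSL, Nrg2 was called lower (log2 fold change -1.46, edgeR adjusted p = 0.0441). Nrg3 held 0 counts in all 6 and was not tested.

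Among 10 genes for the release of ligands from the membrane, none was called by edgeR, 5 had an unadjusted p below 0.05, DESeq2 called 2 (Adam12 and Adam19), and the median log2 fold change was 0.29. The smallest p was that of the metalloprotease gene Adam12, at 14.0, 8.27 and 16.1 CPM in Ivl:BRAFV600E and 114, 16.8 and 44.4 CPM in Ivl:BRAFV600E-SOX2LSL (log2 fold change 2.19, SE 0.65, edgeR adjusted p = 0.0989). Without tumour 1 of Ivl:BRAFV600E-SOX2LSL, its log2 fold change was 1.25. Among 14 genes that restrain or degrade the receptors, 1 was called by edgeR, 4 had an unadjusted p below 0.05, DESeq2 called 4 (Sh3gl2 and Sh3kbp1 lower, Lrig1 and Cblb higher), and the median was -0.07. The gene called by edgeR was Sh3gl2, which encodes endophilin A1, a protein of receptor endocytosis. It stood at 12.0, 10.8 and 9.84 CPM in Ivl:BRAFV600E and at 4.78, 5.90 and 5.02 CPM in Ivl:BRAFV600E-SOX2LSL, without overlap (log2 fold change -1.06, SE 0.18, adjusted p = 0.0320).

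Among 27 adaptors and transducers, 1 gene rose and 1 fell, both encoding subunits of PI3K, and the median was near 0. DESeq2 called 4 higher and 3 lower, and 15 had an unadjusted edgeR p below 0.05. Pik3r1, the regulatory subunit p85 alpha, stood at 25.0, 25.9 and 42.4 CPM in Ivl:BRAFV600E and at 71.6, 69.6 and 61.4 CPM in Ivl:BRAFV600E-SOX2LSL (log2 fold change 1.12, SE 0.22, edgeR adjusted p = 0.0430). Pik3cb, the catalytic subunit p110 beta, stood at 94.9, 82.2 and 76.5 CPM in the former and at 46.0, 55.4 and 56.1 CPM in the latter (log2 fold change -0.69, SE 0.14, adjusted p = 0.0467). Neither gene overlapped between the genotypes. Among 14 genes that report ERK output, 1 was called by edgeR, and it rose. The list went both ways, with 8 fold changes above 0, 6 below and a median of 0.47. Tumour 1 of Ivl:BRAFV600E-SOX2LSL set the sign of that median: without it 6 were above 0 and 8 below, with a median of -0.24. Etv5, an ETS factor induced by ERK, stood at 13.7, 12.7 and 12.7 CPM in Ivl:BRAFV600E and at 42.7, 29.6 and 29.8 CPM in Ivl:BRAFV600E-SOX2LSL (log2 fold change 1.38, SE 0.18, adjusted p = 0.0196). Of the 9 with an unadjusted p below 0.05, 5 were above 0 and 4 below. DESeq2 called 3 higher (Etv5, Dusp4 and Spry2) and 1 lower (Egr1). Besides Etv5, those of the 9 above 0 were Dusp4 (log2 fold change 2.08), Spry2 (1.14), Spred2 (0.70) and Spred1 (0.65). Those below 0 were Egr1 (-0.99), Ier3 (-0.72), Fosl1 (-0.67) and Dusp5 (-0.47). Apart from Etv5, edgeR called none of them. Feedback inhibitors were not all above 0, with Spry1 at -0.28 (edgeR adjusted p = 0.394). Without tumour 1 of Ivl:BRAFV600E-SOX2LSL, Dusp4 came to 1.01, Spry2 to 0.56, Spred2 to 0.40 and Spred1 to 0.37, none of them called, and Egr1, Ier3 and Fosl1 were called lower (edgeR adjusted p = 0.0424, 0.0471 and 0.0455). With each of the 6 tumours removed in turn, Etv5 remained called 3 times, Pik3r1 2 times, and Sh3gl2 and Pik3cb 1 time each. With sex as a covariate the calls of all 4 were lost (edgeR adjusted p = 0.0528, 0.0570, 0.0879 and 0.118 in that order), and with the libraries scaled to the keratinocyte markers those of Pik3r1 (0.0561), Sh3gl2 (0.212) and Pik3cb (0.369).

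**Figure D5:**
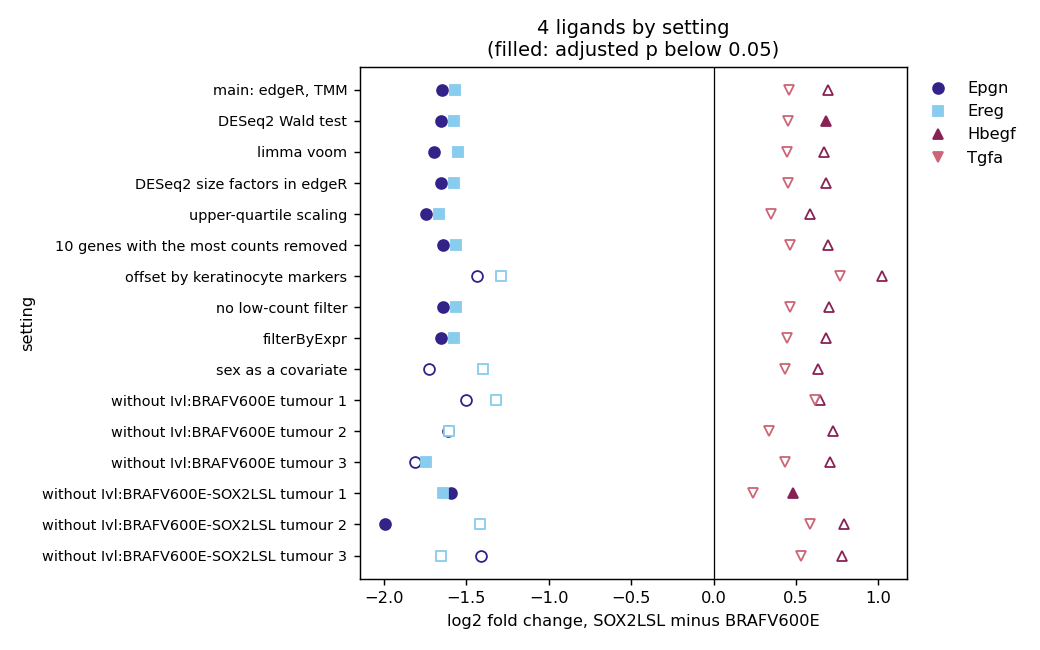
Log2 fold change (x axis) of Epgn, Ereg, Hbegf and Tgfa in the reported fit (top) and under each alternative setting (y axis), with filled symbols where the adjusted p was below 0.05. Epgn and Ereg lie between -1.99 and -1.29 under every setting shown, and Hbegf between 0.48 and 1.02.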

How the data were processed

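Total RNA of the tumours was depleted of ribosomal RNA and sequenced. Per the submitters' processing notes, reads were checked with FastQC 0.11.8, trimmed with Trim Galore, aligned to GRCm38 with HISAT2 2.1.0 and counted with featureCounts (Subread 1.6.3). The authors deposited raw counts per gene, without normalisation. Whether counting used the strand is not given in the sources used here. The labels list 4 Ivl:BRAFV600E and 3 Ivl:BRAFV600E-SOX2LSL samples. Of 7 columns, named by mouse, 6 from separate mice matched the study's list of genotypes, and 1 matched no listed mouse and was not used. Tumours are numbered in table order.

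Genes reaching 5 reads in 1 or more tumours were tested with edgeR 4.0.16 in R 4.3.3 (TMM, quasi-likelihood test, genotype as the only factor, Benjamini-Hochberg at 0.05). Tumours numbered 3 per genotype, for which an exact permutation test of a single gene could not go below 0.1. Symbols came from a reference table, and positions and merged exon lengths from GENCODE M21. Alternatives were DESeq2 1.42.0, limma 3.58.1 (voom), other scalings (one to the geometric mean of the keratinocyte markers), other filters, sex as a covariate and each tumour left out. The script was tested on simulated counts.

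All members are named, with ERBB4 and the neuregulins, the called genes of each pathway list (or the one of smallest p), the genes around the chromosome 5 ligands and the 5 genes most like the member of smallest p. The members and lists were chosen with earlier results of these data known.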

Additional observations from a re-analysis of the deposited data

How the results depend on the processing

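No paired analysis was possible because the columns carry no replicate number. The genes called numbered 954 as reported, 3653 with DESeq2, 1759 without a low-count filter, 228 with sex as a covariate, and 22 to 1575 when a tumour was left out (22 without tumour 1 of Ivl:BRAFV600E and 1575 without tumour 1 of Ivl:BRAFV600E-SOX2LSL). The members called numbered 2 as reported, 0 with the libraries scaled to the keratinocyte markers, 0 with sex as a covariate, 3 with DESeq2, and 0 to 3 when a tumour was left out. The scaling to keratinocyte markers moved the median over all genes from 0.04 to 0.30. Relative to that shift, Areg (0.25) and Erbb3 (0.15) stayed below the median, though their signs turned. Without 1 tumour, Areg ranged from -0.54 to 0.13 and Erbb3 from -0.175 to 0.22, and Erbb3 was 0.043 with sex as a covariate. The cause was not tested.

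Of 150 member values under alternatives, 128 kept their direction and their side of the threshold, 12 kept the direction but no longer passed, 2 newly passed and 8 changed sign. Epgn and Ereg each passed in 9 of 15 alternatives and Hbegf in 2, and each had an unadjusted p below 0.05 in 15. Without division by exon length, Epgn and Ereg made up 44.6% of ligand CPM on average in Ivl:BRAFV600E and 16.5% in Ivl:BRAFV600E-SOX2LSL, against 47.1% and 75.8% for Hbegf and Tgfa, with Epgn and Ereg still the larger pair in tumours 1 and 2 of Ivl:BRAFV600E but not in tumour 3. All comparisons rested on 3 tumours per genotype, and that of Erbb4 on 0 to 32 counts per tumour.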

Other observations

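Tumour 1 of Ivl:BRAFV600E-SOX2LSL stood apart in several genes around ERK that passed no test between the genotypes and were chosen after their values were seen. Dusp6, a phosphatase that switches off ERK, stood at 120, 62.5 and 55.9 CPM in Ivl:BRAFV600E and at 260, 46.1 and 87.3 CPM in Ivl:BRAFV600E-SOX2LSL. Spry4, a feedback inhibitor of receptor signalling, stood at 8.76, 8.78 and 4.28 CPM and at 72.4, 8.78 and 7.62 CPM. In both genes tumour 1 of Ivl:BRAFV600E-SOX2LSL was the highest of the 6, as it was for Nrg1 and Adam12. Without that tumour the log2 fold change was -0.26 for Dusp6 and 0.17 for Spry4.

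Lrig1, which promotes the removal of EGFR from the cell surface and marks stem cells of the skin, stood at 19.3, 8.13 and 19.8 CPM in Ivl:BRAFV600E and at 82.8, 41.6 and 49.0 CPM in Ivl:BRAFV600E-SOX2LSL, without overlap. Its log2 fold change was 1.88 (SE 0.40), and it missed the threshold with edgeR (adjusted p = 0.0504) and passed it with DESeq2 (adjusted p = 0.000202), in all in 3 of 15 alternatives.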
